A study of Mus musculus with 8 samples.

Results

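The genes described here are 6 transcription factor genes of lymphoid cells, Irf4, Irf8, Irf2, Spib, Spi1 and Ets1, followed through the chromosome contacts of the 50 kb bins that hold their start sites. They were chosen by name, out of 21938 protein-coding genes placed in bins of the autosomes, X and Y, with earlier results of these data known. Each gene has 1 start bin, and all 6 bins were among the 13301 start bins kept. Contacts were counted up to 2 Mb on each side. In situ Hi-C was used: crosslinked chromatin is cut with the enzyme MboI, neighbouring ends are ligated, and each sequenced read pair records a contact between a pair of genomic places.

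Splenic B cells of male C57BL/6 mice, 6 to 12 weeks old and of the Pep3b background, were stimulated in culture with 25 µg/ml lipopolysaccharide (LPS), a component of bacterial walls to which B cells respond, after labelling with the division dye CellTrace Violet (CTV). Undivided activated cells (gated among other markers as TCRβ- CD69+ CTVhighest) were sorted at 3 h, at 10 h and at 33 h (imminent division). The pre-S group at 33 h came from C57BL/6 FUCCI mice, whose fluorescent proteins report the phase of the cell cycle, and was gated among other markers as CD69+ CTVhighest mAG- mKO2hi, so strain and gate cannot be told apart from the group. Each of the 4 groups had 2 libraries, described as biological duplicates; whether animals were pooled was not stated, and p-values measure the spread between these libraries. All 4 groups were treated with LPS, and no unstimulated library was used here.

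Libraries held 88703088 to 218945191 read pairs, and 70.9% to 75.1% of their autosomal pairs lay within a chromosome. A start bin had 1266 to 4961 of them within 2 Mb in a library. In the second imminent division library 3.74% of read ends lay on X and 0.0490% on Y, against 2.39% to 2.84% and 0.0804% to 0.123% in the other 7 libraries, although all mice were described as male. All 6 genes are autosomal, and the calls lost without that library are named beside the results. Contacts carry no expression values, so the cell type could not be checked against markers. The imminent division and pre-S comparisons share the 10 h libraries, and no relation between them was computed.

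Interferon regulatory factors (IRFs) bind GAAA-type elements through a conserved DNA-binding domain, and ETS factors bind a GGAA core. IRF4 and IRF8 bind DNA weakly alone and join PU.1 (product of Spi1) or SPI-B (product of Spib) on composite elements in which both cores lie side by side. In B cells IRF4 drives class switching and plasma cell formation, IRF8 and PU.1 act in earlier B-cell stages and in germinal centre cells, SPI-B serves B-cell receptor signalling, and ETS1 holds back plasma cell differentiation. IRF2 binds interferon response elements and often opposes IRF1 there.

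The start windows of Irf4, Irf8, Irf2 and Spib, the 4 genes matched to RefSeq promoter sequences (GRCm38.p6), are shown to place the letters that IRF and ETS factors bind. Those of Spi1 and Ets1 were not searched. Each run is 300 bases on the strand of the gene, from 250 bases before the RefSeq start to 50 after, which for Irf4 and Irf2 lies a few bases from the GENCODE start used elsewhere, and capitals mark GGAA (or TTCC, its reverse complement) together with GAAANNGAAA, which pairs GAAA with itself as in interferon response elements, and GGAANNGAAA, which pairs the ETS core with GAAA as in composite elements. Both strands were searched, and N is any base. By the main fits, the Irf8 and Spib windows belong to the genes whose summed contacts fell in both 33 h groups. The Irf2 window belongs to the gene whose sum was higher at imminent division, and the Irf4 window to the gene whose start bin then had less contact with the Exoc2 bin. Not all of these calls held under the alternatives given below, and the Irf2 change turned negative in some.
Irf8, chr8:120736108-120736407, + strand: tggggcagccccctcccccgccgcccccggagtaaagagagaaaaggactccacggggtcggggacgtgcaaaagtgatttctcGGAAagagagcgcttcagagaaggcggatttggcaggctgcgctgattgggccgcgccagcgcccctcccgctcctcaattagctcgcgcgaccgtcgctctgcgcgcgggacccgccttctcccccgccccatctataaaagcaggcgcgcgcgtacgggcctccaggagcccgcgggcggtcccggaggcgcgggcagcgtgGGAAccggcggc
Spib, chr7:44532022-44532321, - strand: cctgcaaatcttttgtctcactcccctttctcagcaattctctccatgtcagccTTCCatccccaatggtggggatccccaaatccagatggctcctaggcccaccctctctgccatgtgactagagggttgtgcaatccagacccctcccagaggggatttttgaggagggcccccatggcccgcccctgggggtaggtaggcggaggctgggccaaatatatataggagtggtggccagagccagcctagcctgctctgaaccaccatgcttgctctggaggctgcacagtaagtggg
Irf2, chr8:46739495-46739794, + strand: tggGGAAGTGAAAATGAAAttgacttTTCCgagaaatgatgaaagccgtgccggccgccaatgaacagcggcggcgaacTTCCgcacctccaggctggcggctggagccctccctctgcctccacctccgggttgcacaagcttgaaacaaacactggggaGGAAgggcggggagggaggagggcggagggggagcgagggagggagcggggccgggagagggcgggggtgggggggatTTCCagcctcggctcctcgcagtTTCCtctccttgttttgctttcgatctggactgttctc
Irf4, chr13:30748983-30749282, + strand: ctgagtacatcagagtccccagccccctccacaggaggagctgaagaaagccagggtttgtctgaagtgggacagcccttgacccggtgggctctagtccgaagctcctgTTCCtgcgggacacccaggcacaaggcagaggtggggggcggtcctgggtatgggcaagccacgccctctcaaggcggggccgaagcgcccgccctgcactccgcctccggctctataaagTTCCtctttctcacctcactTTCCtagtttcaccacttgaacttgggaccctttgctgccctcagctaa
The core GGAA matched at 2 places in the Irf8 window, 1 in the Spib window, 6 in the Irf2 window and 3 in the Irf4 window, with a median of 3 over 32851 promoter windows of the same length. At least 1 core was present in 96.0% of those windows. The letters GAAANNGAAA were present in 3.44% of all windows and GGAANNGAAA in 2.72%, and of the 4 windows printed only that of Irf2 held them, with 1 match each that overlap in 1 run of capitals. These are matches of letters within short windows, whereas contacts were measured over 50 kb.

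The 6 start bins differ in their surroundings. The Irf4 start (chromosome 13, position 30749226) lies 918 bp before the end of its bin (30699735 to 30750144), so the body of the gene lies in the next bin. Irf8 starts at position 120736358 and Irf2 at position 46739732 of chromosome 8, Spib at 44532071 of chromosome 7, Spi1 at 91082390 of chromosome 2 and Ets1 at 32636221 of chromosome 9. The bin of Spib (44499820 to 44550006) also holds the starts of Mybpc2 and Pold1, and that of Spi1 (91049570 to 91099673) those of Psmc3 and Slc39a13, so contacts there cannot be assigned to 1 gene. Within 2 Mb of the start, 168 protein-coding genes begin around Spib and 97 around Spi1, against 58 around Irf8, 34 around Irf2, 16 around Irf4 and 15 around Ets1. GC content of the bins was 44.6% (Ets1) to 54.1% (Spib), and they held 110 to 143 MboI fragments.

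All 6 genes lay in the A compartment, the gene-rich side of the contact pattern, in every library. The compartment component (first principal component of the correlation matrix at 100 kb, positive in A) ranged from 1.04 to 1.47 over the 6 genes and 8 libraries. It was highest for Irf4 and Spi1 (medians over the 8 libraries 1.39 and 1.36) and lowest for Ets1. None of the 6 passed the test in any of the 4 contrasts (limma), against a background of 3.21% of 23787 bins for 10 h minus 3 h, 22.1% for imminent division minus 10 h, 25.0% for pre-S minus 10 h and 18.1% for imminent division minus pre-S. The largest difference was that of Irf2, 0.05 higher at imminent division than at 10 h (SE 0.04, adjusted p = 0.423). Without the second 3 h library Irf2 and Irf8 were called lower at 10 h than at 3 h, and in 250 kb bins Irf8 was called lower at imminent division than at 10 h. Over all bins, 617 rose and 5334 fell for pre-S minus 10 h, which quantile normalization of the component turned into 2684 and 2763.

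The level of contact is given first as observed over expected, the summed read pairs of a start bin within 2 Mb over those of an average autosomal bin at the same distances in the same library. At 10 h it was 1.90 ± 0.0135 (SD, n = 2 here and below) for Irf2, 1.86 ± 0.000202 for Ets1, 1.85 ± 0.0700 for Irf4, 1.67 ± 0.00489 for Spi1, 1.59 ± 0.0106 for Spib and 1.38 ± 0.0132 for Irf8. The libraries of Irf4 overlapped with those of both Irf2 and Ets1, while Spi1, Spib and Irf8 followed in that order without overlap between neighbours. Counts were not balanced for how well a bin is seen, so this order also carries bin coverage.

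At imminent division the same ratio was 1.72 ± 0.0499 for Irf2, 1.55 ± 0.00673 for Ets1, 1.52 ± 0.0915 for Irf4, 1.37 ± 0.0168 for Spi1, 1.197 ± 0.0932 for Spib and 1.12 ± 0.0445 for Irf8. For each of the 6 genes both imminent division libraries and both pre-S libraries lay below both 10 h libraries, as they did for 48.7% of the 13301 start bins. This is a description with no test, since the average bin that sets the expected count also changed between groups.

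The contacts were mostly close. Of the read pairs of Ets1 within 2 Mb, 93.2% ± 0.195 lay within 500 kb at 10 h and 88.2% ± 1.36 at imminent division. For Irf2 the shares were 87.4% ± 0.706 and 84.9% ± 0.937, for Irf4 84.8% ± 0.260 and 81.7% ± 0.296, and for Irf8 80.6% ± 1.39 and 78.2% ± 0.0640. Spib went the other way, from 74.9% ± 0.921 to 79.8% ± 0.854, and Spi1 stayed within its spread, at 83.7% ± 1.13 and 84.6% ± 0.916. An average bin with the same flanks as Irf4 had 69.6% in both groups. These shares are a description with no test.

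**Figure D1:**
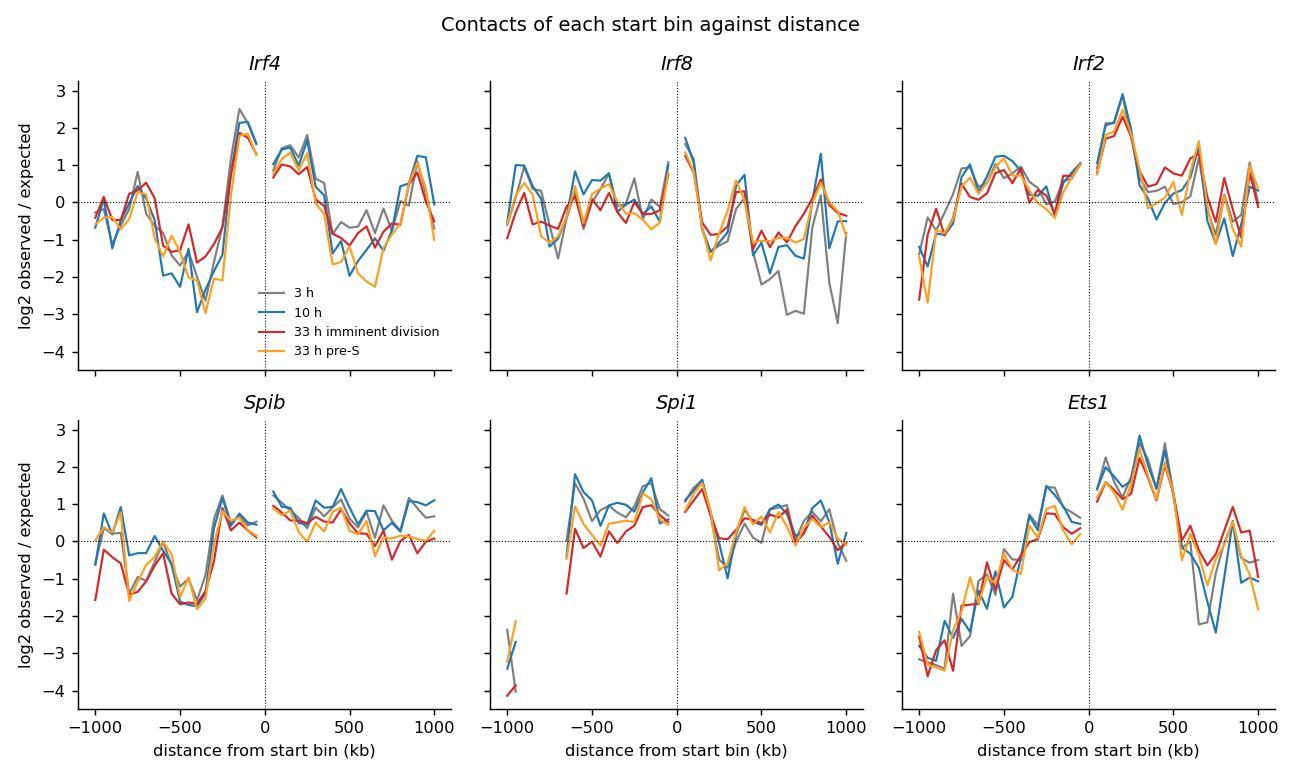
Log2 observed over expected contacts (vertical axis, mean of 2 libraries) against the distance of the partner bin from the start bin in kb, for the 6 genes and 4 groups, with gaps at bins left out. Irf4, Irf2 and Ets1 have tall peaks of contact within 500 kb, Irf8 drops below 0 from 150 to 300 kb after its start, and the Spi1 curve at imminent division lies below the others from 300 to 600 kb before the start.

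The tests used read pairs within 2 Mb, normalised by a loess curve on abundance so that the typical start bin stays near no change. For Irf8 the normalised sums were 2037 and 2135 (3 h), 2160 and 2143 (10 h), 1866 and 1887 (imminent division) and 1873 and 2029 (pre-S). Both 33 h groups lay below both 10 h libraries. The change was -0.20 on the log2 scale (SE 0.04, adjusted p = 0.000978, edgeR quasi-likelihood test) for imminent division minus 10 h and -0.14 (SE 0.05, adjusted p = 0.0177) for pre-S minus 10 h.

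For Spib the normalised sums were 2420 and 2330 (3 h), 2400 and 2445 (10 h), 1961 and 2082 (imminent division) and 2089 and 2213 (pre-S). All 4 libraries at 33 h lay below all 4 of the earlier times. The log2 change was -0.26 (SE 0.04, adjusted p = 9.42e-05) for imminent division minus 10 h and -0.17 (SE 0.04, adjusted p = 0.00526) for pre-S minus 10 h. With interchromosomal coverage of the bins added to the offsets these values were -0.07 and -0.09 and neither passed the test, whereas those of Irf8 (-0.17 and -0.15) did.

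Spi1 had normalised sums of 2460 and 2554 (3 h), 2452 and 2466 (10 h), 2319 and 2241 (imminent division) and 2410 and 2361 (pre-S). Only the imminent division libraries were called lower, by -0.11 (SE 0.04, adjusted p = 0.0232), a value that became 0.01 with coverage in the offsets and 0.02 over contacts above the distance curve. Irf2 went the other way, with 2792 and 2858 (10 h) against 3059 and 3013 (imminent division), a change of 0.10 (SE 0.04, adjusted p = 0.0316). Under TMM factors or DESeq2 size factors the Irf2 value was -0.07 and did not pass the test, whereas with coverage in the offsets it was 0.21 (adjusted p = 0.000382), and Irf2 was then called higher for pre-S minus 10 h too (0.21, adjusted p = 0.00156). Without the second imminent division library the Spi1 change was -0.08 and was not called (adjusted p = 0.191).

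Irf4 had 2830 and 2717 (10 h) against 2626 and 2707 (imminent division), and Ets1 2769 and 2805 against 2804 and 2637. Neither was called. Their changes were -0.05 (SE 0.04, adjusted p = 0.247) and -0.04 (SE 0.04, adjusted p = 0.507), and the groups of Ets1 overlapped. With TMM factors, which apply no curve on abundance, both were called lower at imminent division, by -0.21 for Irf4 and -0.20 for Ets1. Under that setting 56.1% of all start bins were called.

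**Figure D2:**
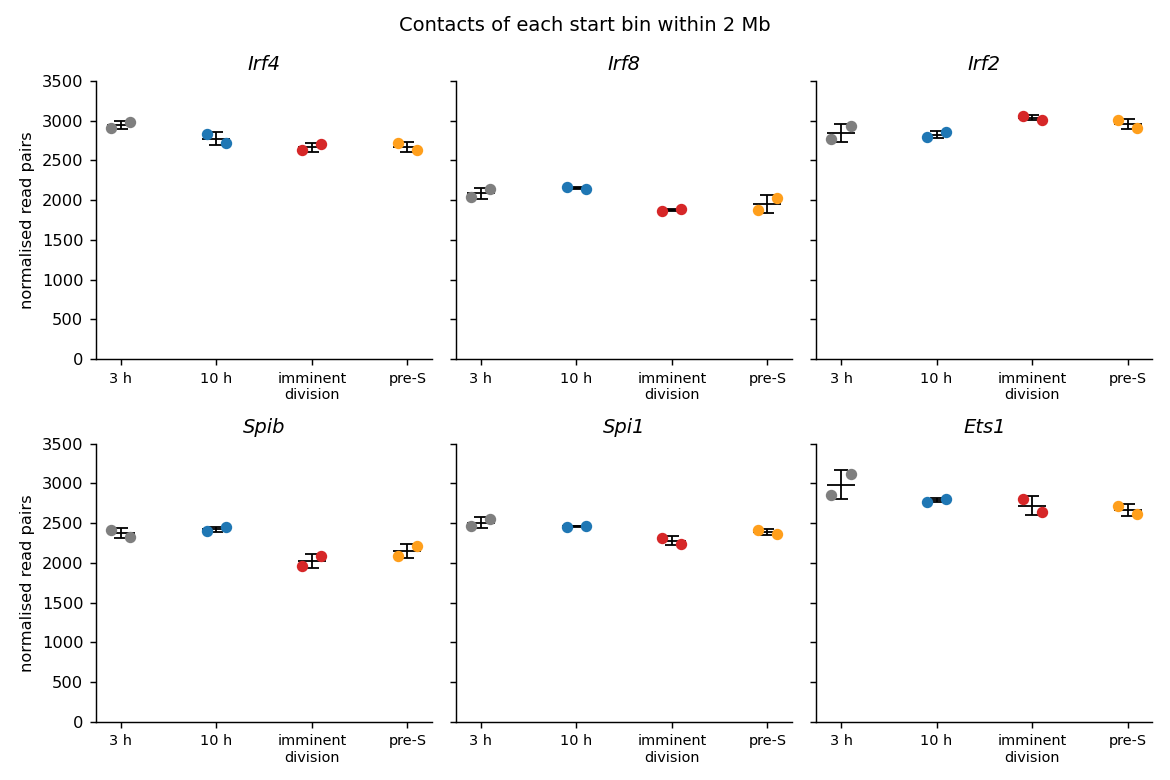
Normalised read pairs within 2 Mb of each start bin (vertical axis from 0) in the 4 groups, with each library as a point and the mean and SD as a line with bars (n = 2). Irf8 sits lower in both 33 h groups, at 1866 to 2029, than at 10 h, at 2143 to 2160. Spib does so too, at 1961 to 2213 against 2400 to 2445.

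Read against all 13254 start bins tested, 4 of the 6 genes were called for imminent division minus 10 h where the background was 44.2%. Of these 1 was higher (background 22.3%) and 3 were lower (background 21.9%). For pre-S minus 10 h 2 of 6 were called, both lower, against 37.3% of start bins called at all and 18.1% called lower. No member was called for 10 h minus 3 h (background 0.0679%) or for imminent division minus pre-S (background 4.07%), and 2 of the 6, Irf4 and Ets1, had an unadjusted p under 0.05 in the former, as did 1588 of the 13254 start bins. The median over the 6 genes was -0.08 for imminent division minus 10 h and -0.06 for pre-S minus 10 h, with 0.00 over all start bins in both. With either 10 h library left out 2 genes were called for imminent division, and 3 without its second library, and for pre-S the number called was 1 without the first 10 h library and 0 without the second 10 h or the first pre-S library.

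Single bin pairs were then tested: 290 pairs of the 6 start bins passed the filter on abundance, 60 for Irf4, 56 for Irf8, 54 for Spib, 42 for Irf2, 41 for Spi1 and 37 for Ets1. For imminent division minus 10 h, 21 of them (7.24%) were called, 4 higher and 17 lower. The background over 525672 pairs of any start bin within 2 Mb was 3.37% called, 0.824% higher and 2.54% lower. Of the 17 lower pairs, 6 belonged to Spi1 and 6 to Spib. The median log2 change over the 290 pairs was -0.15. Called or not, 43.1% of all start bin pairs within 500 kb were below 0 (median 0.05), and 61.6% of those further away (median -0.16).

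Spi1 weakened with several bins before its start. With the bin 600 kb before it (chromosome 2, 90449861 to 90500057), which lies in Ptprj, the gene of the receptor phosphatase CD148, normalised counts were 58.4 and 40.7 (3 h), 62.1 and 54.6 (10 h), 21.2 and 20.2 (imminent division) and 29.98 and 33.8 (pre-S). All 33 h libraries lay below all earlier ones. The log2 change for imminent division minus 10 h was -1.48 (SE 0.23, adjusted p = 2.56e-06), and this pair was called under all 14 alternatives run, each library left out in turn included. The other pairs called for this comparison kept their call under 4 to 12 of the 14.

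The neighbouring bins gave the same order of groups. At 550 kb (also in Ptprj) the counts were 39.3 and 53.8 (10 h) and 15.2 and 16.3 (imminent division), a log2 change of -1.58 (SE 0.25, adjusted p = 8.61e-06). At 500 kb, where Ptprj starts, they were 39.4 and 48.2 against 16.4 and 23.9 (-1.11, SE 0.24, adjusted p = 0.00296). The bin at 350 kb, with Nup160 (a nuclear pore protein) and Fnbp4, gave 54.5 and 64.8 against 26.5 and 31.2 (-1.05, SE 0.21, adjusted p = 0.000721). The bins at 200, 250, 400 and 450 kb were below 0 too (-0.21, -0.26, -0.63 and -0.85), and none of them was called.

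Closer to Spi1 the drop was smaller. The bin 150 kb before it holds the starts of Celf1 (an RNA-binding protein), Ndufs3 (a subunit of respiratory complex I) and Kbtbd4, and its counts were 206 and 190 (10 h), 136 and 144 (imminent division) and 135 and 144 (pre-S). It was called in both, with -0.50 (SE 0.11, adjusted p = 0.00524) and -0.50 (SE 0.13, adjusted p = 0.0355). The bin 300 kb before Spi1, with Fnbp4 and Agbl2, was called lower at imminent division as well, and the bin 300 kb after it, in 1110051M20Rik, was the only Spi1 pair called higher (0.98, SE 0.27, adjusted p = 0.0297), from 12.3 and 22.7 to 30.3 and 41.3. On the other side, 15 of the 18 Spi1 pairs over 500 kb after the start were below 0, and none was called. These pairs share the Spi1 bin, so they are not independent.

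Spib weakened on both sides and mostly far away. With the bin 850 kb before it, which holds the starts of Siglece (a sialic acid-binding receptor), Klk14 and Ctu1, counts were 12.6 and 13.9 (3 h), 21.2 and 22.9 (10 h), 6.3 and 7.7 (imminent division) and 13.4 and 27.2 (pre-S), with a change of -1.64 for imminent division minus 10 h (SE 0.37, adjusted p = 0.00415). With the bin 1350 kb after it, with Grin2d (a glutamate receptor subunit) and Kdelr1 (which retrieves proteins to the endoplasmic reticulum), they were 18.1 and 15.8 (3 h), 18.8 and 22.9 (10 h) and 6.9 and 7.7 (imminent division), a change of -1.50 (SE 0.37, adjusted p = 0.0105). The pre-S libraries overlapped with those of 10 h in the first of these and not in the second.

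The other Spib calls were 300 kb before the start, over a cluster of kallikrein genes (Klk1 and relatives, serine proteases), and 650, 1200 and 1300 kb after it, with log2 changes of -0.87, -1.02, -1.18 and -1.49. They were called under 7, 4, 6 and 6 of the 14 alternatives in that order, and the pairs 850 kb before and 1350 kb after under 11 and 9. Most Spib pairs did not pass the test. Those over 500 kb away were all below 0 at imminent division, 13 before the start (median -0.91) and 21 after it (median -0.95), against the 61.6% of all start bin pairs above, and they share the Spib bin, so they are not independent. Within 500 kb, 8 of 10 before and 7 of 10 after the start were below 0.

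Irf4 and Irf8 each had 2 pairs called, all lower. Irf4 with the bin 250 kb after it, where Exoc2 (an exocyst subunit) starts, had 120 and 129 (10 h) and 79.5 and 92.6 (imminent division), a change of -0.53 (SE 0.14, adjusted p = 0.0195). With the bin 950 kb after it, in which no protein-coding gene lies, Irf4 went from 26.2 and 21.9 to 10.7 and 8.3 (-1.33, SE 0.34, adjusted p = 0.0153), while the 3 h libraries had 9.0 and 14.8. The next bin, which holds the body of Irf4, had none of its 53 tested pairs called at imminent division against 10 h, and its pair with the same Exoc2 bin changed by -0.44 (adjusted p = 0.0636). This bin was added after the data were seen, and for pre-S minus 10 h its pair with the Uqcrfs1 bin, 250 kb before it, was called lower (-0.78, adjusted p = 0.0360). Before its start Irf4 went the other way without a call: 2 of 10 pairs within 500 kb were below 0, and the median was 0.71. These pairs share the Irf4 start bin, so they are not independent.

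Irf8 with the next bin after it, which holds the end of the gene, had 536 and 507 (3 h), 590 and 615 (10 h), 493 and 509 (imminent division) and 514 and 523 (pre-S), with a change of -0.27 for imminent division minus 10 h (SE 0.07, adjusted p = 0.0291). With the bin 950 kb before it, at Tldc1 and Atp2c2, it went from 25.0 and 17.2 to 7.6 and 7.8 (-1.41, SE 0.37, adjusted p = 0.0192), and the 3 h libraries had 9.0 and 13.0. For the distant pairs of both Irf4 and Irf8 the 3 h values lay below those of 10 h, without passing that test.

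Irf2 had 2 pairs called, both higher, at 400 and 450 kb after its start and in neighbouring bins, the latter in Stox2. At 400 kb the counts were 30.4 and 33.0 (3 h), 19.7 and 17.0 (10 h), 34.8 and 36.9 (imminent division) and 22.9 and 25.3 (pre-S), with a change of 0.98 for imminent division minus 10 h (SE 0.27, adjusted p = 0.0298). At 450 kb they were 20.8 and 23.6 (10 h) and 40.7 and 46.2 (imminent division), a change of 0.96 (SE 0.25, adjusted p = 0.0165). Both imminent division libraries stood above both pre-S libraries in each, and neither pair was called in that contrast.

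Ets1 had 1 pair of each direction. With the bin 250 kb before it, where Kcnj1 (a potassium channel) starts, it had 113 and 108 (10 h) and 85.9 and 62.8 (imminent division), a change of -0.58 (SE 0.15, adjusted p = 0.0160). The higher pair, 750 kb after the start, rested on 3 and 1 read pairs at 10 h against 13 and 21 (imminent division), a change of 2.15 (SE 0.63, adjusted p = 0.0430). None of the 9 Ets1 pairs over 500 kb after the start was below 0. These pairs share the Ets1 bin, so they are not independent, and only the pair at 750 kb was called.

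**Figure D3:**
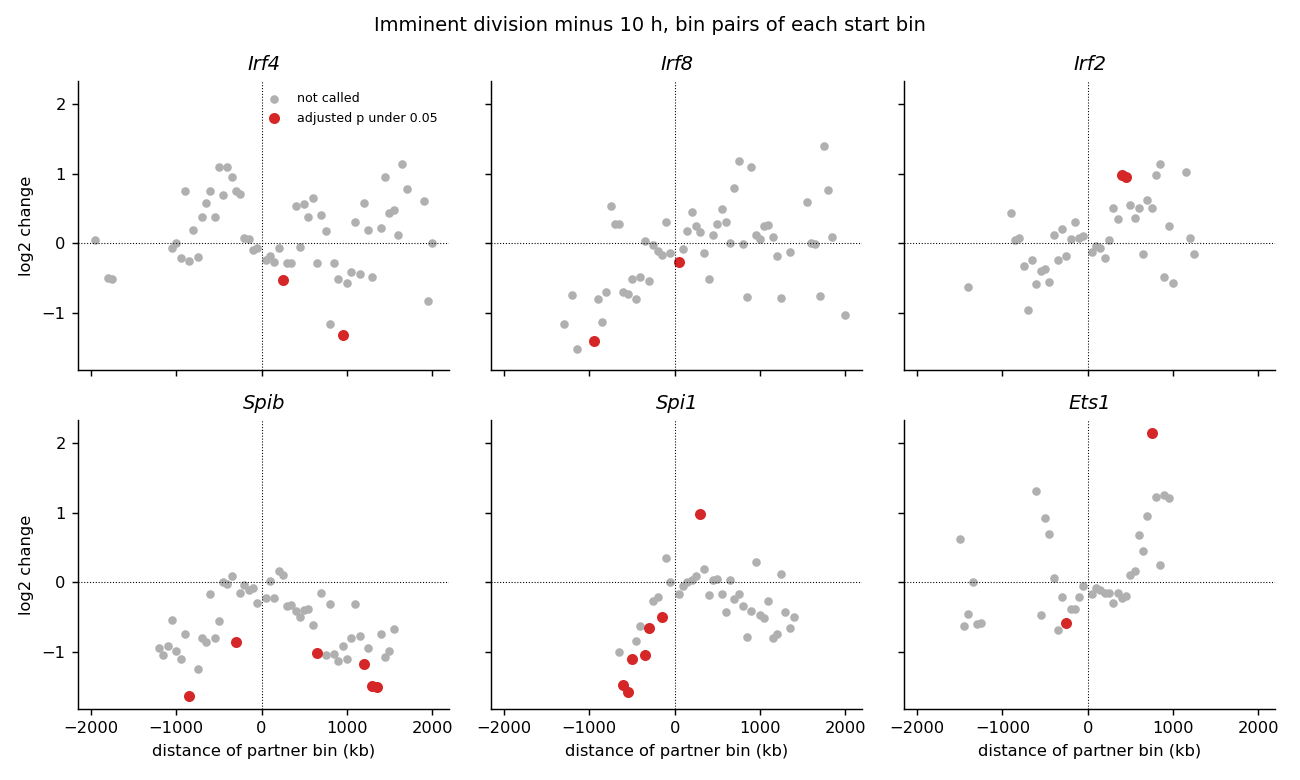
Log2 change of every tested bin pair of the 6 start bins for imminent division minus 10 h (vertical axis) against the distance of the partner bin in kb, with the 21 called pairs in red. The Spi1 points lie below 0 from 150 to 600 kb before the start, lowest at 550 and 600 kb. The Spib points sink on both sides with distance, the called Irf2 pairs stand near 1, and the Ets1 points over 500 kb after the start lie above 0.

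In the other contrasts few pairs passed. The pre-S libraries held 117386199 and 105015427 read pairs, against 180325399 and 218945191 at imminent division, so the numbers of calls are not compared between the contrasts with 10 h. Over the 290 pairs the median log2 change for pre-S minus 10 h was -0.22. Over all start bin pairs it was -0.06 within 500 kb and -0.14 further away. For pre-S minus 10 h 2 of 290 (0.690%) were called, both lower, with a background of 0.547% called and 0.397% lower: the Spi1 pair with Celf1 above, and Ets1 with the bin 150 kb before it, inside Fli1, from 125 and 115 to 79.3 and 74.7 (-0.63, SE 0.17, adjusted p = 0.0449). For imminent division minus pre-S 1 pair was called, higher (background 0.340% called, 0.166% higher): Irf4 with the bin 250 kb before it, with 22.0 and 28.9 against 6.8 and 10.5 (1.58, SE 0.37, adjusted p = 0.0186). None was called for 10 h minus 3 h (background 0.00114%), where the smallest adjusted p was 0.561, for Irf8.

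The 21 calls at imminent division depended on the libraries. Without the second imminent division library 7 of them remained: Irf4 at 250 kb after, Spib at 850 kb before, and Spi1 at 150, 350, 500, 550 and 600 kb before. All called pairs of Irf8, Irf2 and Ets1 were lost. The size of the change mostly stayed. For Irf8 it was -1.43 (950 kb before) and -0.29 (next bin) without that library, against -1.41 and -0.27 with it. For Irf2 it was 0.93 (400 kb) and 0.85 (450 kb), against 0.98 and 0.96. The lost Spib pairs had changes from -1.03 to -1.58. Smaller changes were seen in Irf4 at 950 kb (-1.33 to -1.14), Spi1 300 kb after (0.98 to 0.73), and Ets1 with Kcnj1 (-0.58 to -0.34) and at 750 kb (2.15 to 1.79). Leaving out the first 10 h library gave 6 called pairs and leaving out the second gave 1, whereas without the first or second imminent division library there were 8 and 10, with DESeq2 8, and with TMM factors 40. In the pre-S contrast with 10 h none was called when either 10 h library was left out or the first pre-S library, 1 without the second pre-S library and 4 without the second imminent division library. The Irf4 call for imminent division minus pre-S was lost when either pre-S library or the second imminent division library was left out.

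The strongest standing partners were chosen by observed over expected contact over all 8 libraries, at 150 kb or more. For Irf2 they were the 3 bins 150 to 250 kb after the start. The bin at 200 kb, which holds no protein-coding gene, was 6.23-fold over expected (mean log2 2.64) with 2574 read pairs in all, and its log2 values were 2.92 and 2.83 (3 h), 2.96 and 2.85 (10 h), 2.30 and 2.29 (imminent division) and 2.45 and 2.52 (pre-S). In the edgeR quasi-likelihood test of normalised counts, the pair at 200 kb changed by -0.21 for imminent division minus 10 h (adjusted p = 0.209). The bin at 250 kb holds the start of Enpp6, a choline phosphodiesterase.

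Ets1 had partners 300, 350 and 450 kb after its start, in bins without protein-coding genes. The strongest, at 300 kb, was 5.85-fold over expected, with log2 values from 2.16 (second imminent division library) to 2.96 (second 10 h library). Its tested change for imminent division minus 10 h was -0.30 (adjusted p = 0.104, edgeR quasi-likelihood test). For Irf4 the strongest lay 150 kb before the start in a bin with no protein-coding gene, 4.21-fold over expected, with log2 values of 2.55 and 2.46 (3 h), 2.202 and 2.07 (10 h), 1.83 and 1.89 (imminent division) and 1.89 and 1.68 (pre-S). In the edgeR quasi-likelihood test of normalised counts, this pair changed by 0.06 for imminent division minus 10 h (adjusted p = 0.804). The other Irf4 partners, at 150 and 250 kb after the start, lie in Exoc2.

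Spi1 had its strongest partner 150 kb after the start, with Nr1h3 (the oxysterol receptor LXRα), Acp2 and Ddb2, at 2.96-fold over expected. There the log2 change for imminent division minus 10 h was 0.01 (adjusted p = 0.988), whereas its partner 150 kb before the start is the Celf1 bin called lower above. The partners of Irf8 and Spib were more distant and weaker. Those of Irf8 were 2000 and 1600 kb after it and 900 kb before it (Cotl1, an actin-binding protein), at 1.60- to 1.88-fold on 74 to 140 read pairs in all 8 libraries, and those of Spib 450, 1400 and 1500 kb after it at 2.10- to 2.26-fold. Of the 18 partner bins, 2 were called for imminent division minus 10 h, the Exoc2 bin of Irf4 and the Celf1 bin of Spi1, both lower, where 3.37% of all pairs were called and 2.54% were lower. The partner bins were chosen for high contact and were not matched to all pairs in depth. The 2 called held 907 and 1368 read pairs in all 8 libraries.

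Neighbours of the same families lay near 2 of the genes. Fli1, an ETS gene, starts 100 kb before Ets1, and their start bins had normalised counts of 141 and 166 (3 h), 131 and 126 (10 h), 101 and 119 (imminent division) and 94.8 and 77.8 (pre-S). The libraries at 33 h lay below those at 10 h, and neither contrast passed the test (imminent division minus 10 h -0.21, adjusted p = 0.449, and pre-S minus 10 h -0.56, adjusted p = 0.0675). Irf3 starts 450 kb after Spib in 1 of its 3 partner bins, with counts of 64.0 and 55.2 (10 h), 40.99 and 42.3 (imminent division) and 37.2 and 47.8 (pre-S), and adjusted p of 0.159 and 0.382.

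Insulation was measured as log2 of the contact across a bin, between the 500 kb before and the 500 kb after it, relative to the mean of its chromosome, so that low values mark boundaries. All 6 starts lay above 0 in every library. At 10 h Ets1 was highest, at 1.59 and 1.61, then Irf2 at 1.27 and 1.28, Irf4 at 1.2004 and 1.17, Spi1 at 0.88 and 0.98, Irf8 at 0.89 and 0.90, and Spib at 0.46 and 0.45. The libraries of Spi1 and Irf8 overlapped and the other neighbours did not.

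All 6 scores fell in both 33 h groups, although for pre-S minus 10 h Irf2 and Spib turned to 0.08 and 0.0017 once interchromosomal coverage was divided out. At imminent division Irf8 was at 0.48 and 0.55 (log2 change from 10 h -0.38, SE 0.07, adjusted p = 0.00121, limma), Spi1 at 0.58 and 0.59 (-0.34, adjusted p = 0.00129) and Ets1 at 1.23 and 1.37 (-0.30, adjusted p = 0.00242). Irf4 was at 0.84 and 0.95 (-0.29, adjusted p = 0.00205), Spib at 0.16 and 0.26 (-0.24, adjusted p = 0.00761) and Irf2 at 1.04 and 1.15 (-0.18, adjusted p = 0.0151). No group overlapped with 10 h. The share of all bins without such overlap is not given here, so this is not read as a result about the 6 genes.

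At pre-S the changes from 10 h ran from -0.39 for Irf8 (0.43 and 0.57, adjusted p = 0.00220) to -0.20 for Irf2 (1.07 and 1.08, adjusted p = 0.0110) and Spi1 (0.70 and 0.75, adjusted p = 0.0159). The share of bins called lower was 20.8% of 46781 for imminent division minus 10 h and 20.6% for pre-S minus 10 h. Among 21999 bins of the A compartment, to which all 6 genes belong, it was 42.6% and 42.0%, with median changes of -0.11 and -0.12, while over all bins the medians were 0.12 and 0.06. None of the 6 was called for 10 h minus 3 h (limma; background 0.00%, none of the 6 with an unadjusted p under 0.05, against 6497 of the 46781 bins) or for imminent division minus pre-S (background 10.3%), where Spi1 was furthest apart (-0.14, adjusted p = 0.164).

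Dividing the counts by the interchromosomal coverage of both bins kept all 6 calls at imminent division (-0.16 to -0.57, with 25.2% of all bins called lower under that setting) and left only Irf8 called at pre-S (-0.39, background 27.9%). It gave 6 lower calls for imminent division minus pre-S, where 28.9% of bins were called lower, and called Irf2, Spib and Spi1 higher at 10 h than at 3 h (0.20, 0.17 and 0.34), as it did 12.3% of bins. Leaving out the second library of 10 h, or the first of pre-S, gave 3 calls for pre-S minus 10 h. Without the second imminent division library all 6 were called at imminent division.

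**Figure D4:**
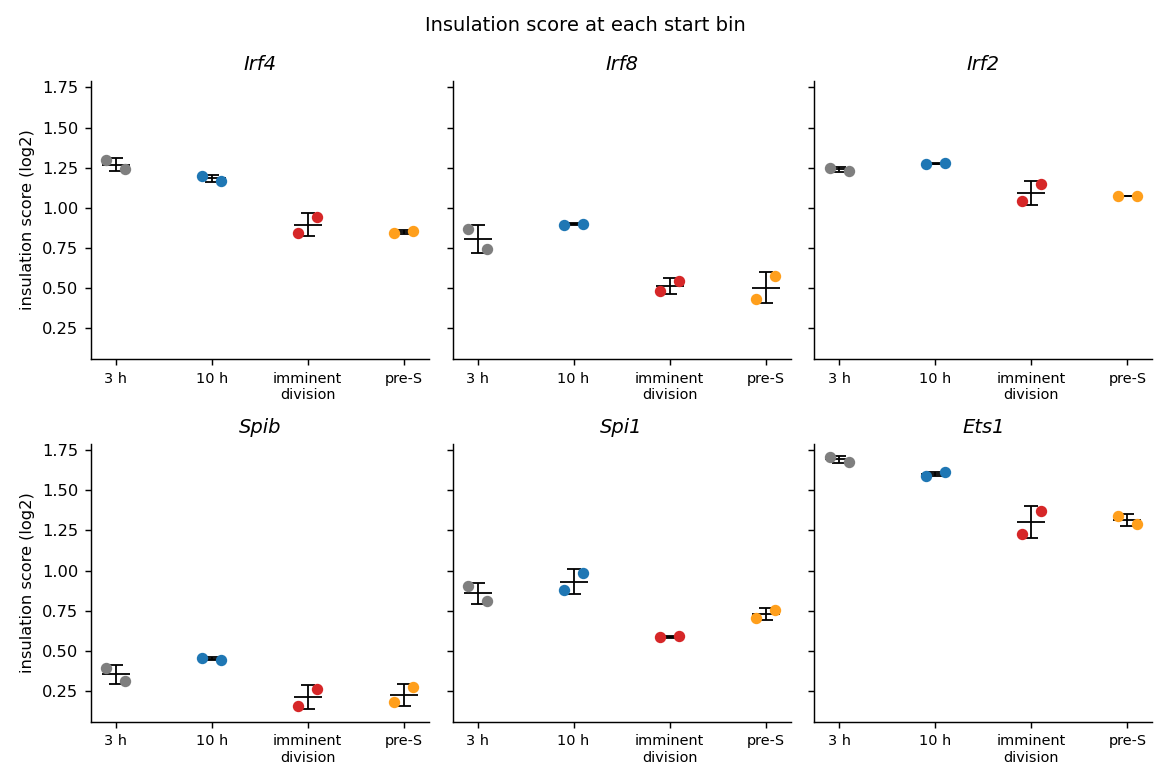
Insulation score at each start bin (vertical axis, log2 relative to the chromosome mean) in the 4 groups, with each library as a point and the mean and SD as a line with bars (n = 2). In all 6 genes the imminent division and pre-S libraries lie below those of 10 h, by 0.18 to 0.39 in the means. The share of all bins that do so is not given.

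The nearest minimum of the profile before the start, a bin lower than the 5 on either side, lay at the same place in all 4 groups for all 6 genes. Irf4 was flanked by minima 200 kb before and 350 kb after its start, and Ets1 by minima 400 kb before and 600 kb after. The nearest minimum after the start moved in the other 4 genes: for Irf8 it was at 150 kb at 3 h and 100 kb in the other groups, for Irf2 at 700 kb in the earlier groups and 250 kb in both 33 h groups, and for Spi1 at 500 and then 600 kb. For Spib it was at 1550 kb in the earlier groups, 450 kb at imminent division and 1500 kb at pre-S. The score at the minimum before Irf4 stood at -0.86 (10 h), -0.61 (imminent division) and -1.04 (pre-S), and that before Ets1 was -0.94, -0.64 and -0.76, so at imminent division both minima were shallower while the score at the start was lower. The minimum 300 kb before Spi1 had a score of 0.80 in both earlier groups, against 0.19 (imminent division) and 0.39 (pre-S). The minimum 300 kb before Spib went from -0.13 at 10 h to -0.53 and -0.35. These minima were read from group means without a test.

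**Figure D5:**
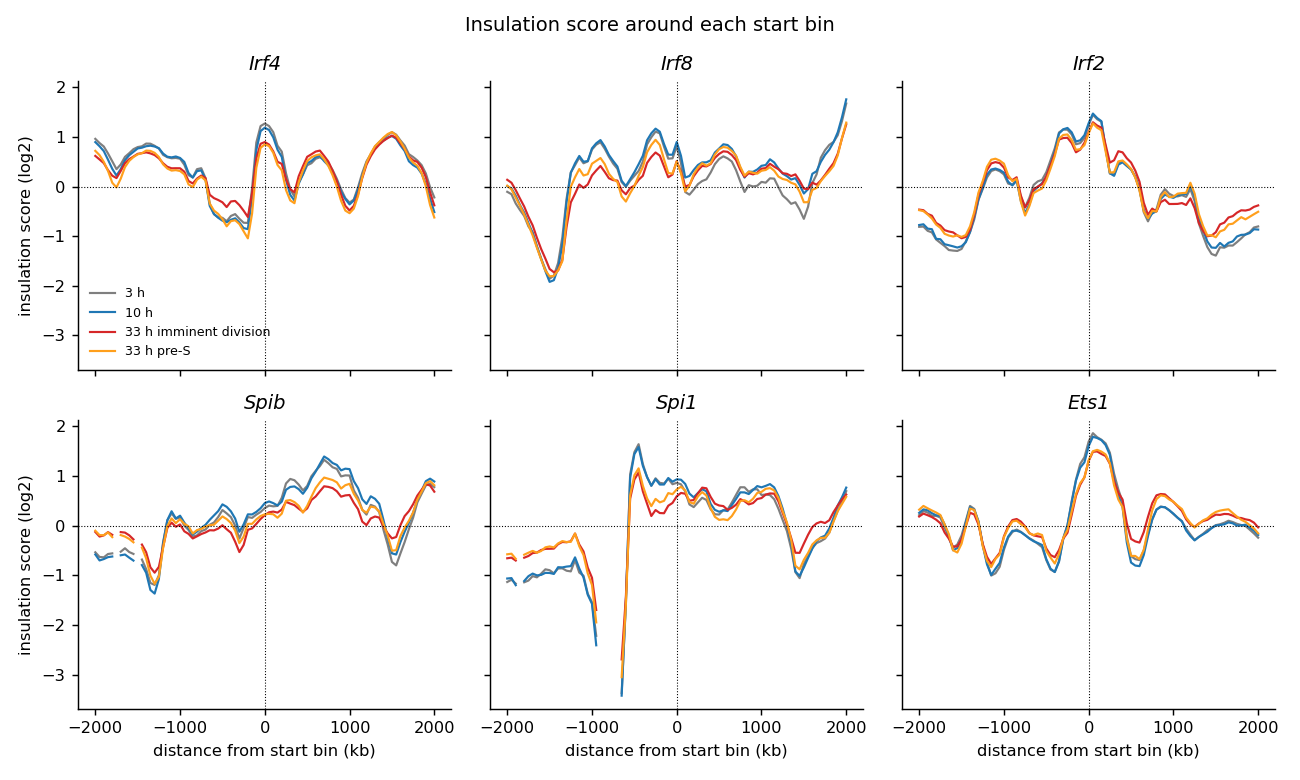
Mean insulation score of 2 libraries (vertical axis, log2) against distance from the start bin in kb, for the 6 genes and 4 groups, with gaps at bins left out. Irf4 and Ets1 sit on peaks between minima at -200 and 350 kb and at -400 and 600 kb, and before Spi1 the 33 h curves run below the earlier ones.

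The upstream over downstream contrast of the 100 kb region at each start, over 1 Mb on each side, was used as a boundary measure. Irf8 was called, with log2 ratios of 1.00 and 1.00 (3 h), 0.76 and 0.76 (10 h), 0.44 and 0.52 (imminent division) and 0.59 and 0.69 (pre-S). The ratio changed by -0.28 for imminent division minus 10 h (adjusted p = 0.0125, glmTreat at a fold change over 1.1). Thus 1 of 6 was called there, with a background of 18.2% of 23569 regions, and none in the other contrasts (0.390% for 10 h minus 3 h, 4.82% for pre-S minus 10 h, 5.56% for imminent division minus pre-S). Spib came next, from -0.20 and -0.12 (pre-S) to -0.39 and -0.43 (imminent division), with an adjusted p = 0.0832. The Irf8 call was lost with 500 kb on each side, and when the second 10 h or the first imminent division library was left out.

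The wider families were counted by local contact sum, relative to the same loess offsets, and were not recomputed under other scalings. Of 6 other IRF genes, 2 were called for imminent division minus 10 h, both lower: Irf3, an interferon inducer (-0.20, SE 0.04, adjusted p = 0.000309), and Irf9, of the interferon response complex (-0.13, SE 0.05, adjusted p = 0.0301). Of 21 other ETS genes 5 were higher, among them Etv1 (0.29), Elf5 (0.21) and Ehf (0.19), and 4 lower, among them Etv2 (-0.20, SE 0.04, adjusted p = 0.000248). Over all start bins 44.2% were called, 22.3% higher and 21.9% lower, so the ETS count lies near the background. The medians were -0.07 and -0.01, against 0.00 over all start bins. At pre-S against 10 h no IRF gene and 7 ETS genes were called, 4 higher, among them Etv1 (0.22) and Spic, a close relative of Spi1 (0.21, SE 0.05, adjusted p = 0.00437), and 3 lower, where 37.3% of all start bins were called and 18.1% were lower.

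Of 16 partners and targets in B cells, 2 were higher and 8 lower for imminent division minus 10 h, against 22.3% and 21.9% of all start bins, with a median of -0.06. Prdm1, which encodes the plasma cell factor BLIMP-1, rose the most (0.33, SE 0.04, adjusted p = 2.41e-05), and Bcl6, the germinal centre repressor, rose too (0.16, adjusted p = 0.00115). Blnk, an adaptor of B-cell receptor signalling, fell (-0.21, adjusted p = 0.000319), as did Junb, an AP-1 partner of IRF4 (-0.17, adjusted p = 0.00109). At pre-S against 10 h 4 were higher and 3 lower, where 37.3% of all start bins were called, with Ciita, the activator of MHC class II genes, lowest (-0.29, SE 0.04, adjusted p = 0.000150). For 10 h minus 3 h no gene of the 3 lists was called, and for imminent division minus pre-S Etv4 was called higher (0.15).

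By the pattern of normalised sums over the 8 libraries, the start bins most like that of Irf4 were those of Tcf7l2 and Frrs1l (Pearson r = 0.973 and 0.972, over 8 libraries in 4 groups, a description across libraries that share their groups). For Irf8 they were Pttg1ip (0.990) and the bin of Dbn1 and Prr7 (0.977), for Irf2 Clec14a (0.993) and the bin of BC055324 and Mettl18 (0.991), and for Spib St3gal3 (0.992) and the bin of Orm2 and Orm3 (0.992). For Spi1 they were a bin with Gm10767, Mterf3, Ptdss1 and Uqcrb (0.980) and Kctd7 (0.979), and for Ets1 Ensa (0.991) and the bin of Fam114a1 and Tlr6 (0.971). Among the 6 genes themselves Spib ran with Irf8 (r = 0.914) and against Irf2 (r = -0.921).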

How the data were processed

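Reads were aligned to mm10 by the authors (diffHic), who deposited, for each library, counts of read pairs between bins of 50 kb, raw and not balanced. To recover the places of these bins, MboI fragments were rebuilt from the GRCm38 sequence and assigned to bins by their midpoints. Gene starts came from GENCODE vM21. Of 48088 autosomal bins 756 were left out for undetermined bases or extreme coverage, and 47332 were kept.

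Deposited counts were tested with edgeR 4.0.16 (glmQLFit and glmQLFTest, or glmTreat for the boundary ratio), with loess offsets, a minimum of 200 counts for summed contacts, and a minimum of 10 counts and 4-fold over the interchromosomal background for bin pairs. Insulation and the compartment component were tested with limma 3.58.1, in R 4.3.3. Every fit held all 8 libraries in a one-way layout, and p-values were adjusted by Benjamini-Hochberg over all features tested, with 0.05 as threshold. Log2 observed over expected of single bin pairs used a pseudocount of 0.5, and the summed ratio within 2 Mb used none. DESeq2 1.42.0, TMM factors, coverage offsets, other windows, the replicate block and leaving out each library were the alternatives. Tests were tried on simulated data for imminent division minus 10 h, with 200 features changed. Of summed contacts changed by 0.2 on the log2 scale, 45.0% were called. For insulation it was 0.0% of scores changed by 0.3 and 81.5% of those changed by 0.6. For bin pairs it was 0.0% at 0.5, 18.5% at 1.0 and 72.0% at 2.0. In the data 5861 of 13254 start bins were called, and 20629 insulation bins were called higher and 9737 lower. So many calls loosen the adjusted threshold, so these rates do not give the power of the tests on the data.

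The genes and lists were chosen with earlier results of these data known. Named are the 6 genes, the 3 partner bins with the highest observed over expected at 150 kb or more, for each gene and contrast the 2 pairs of smallest adjusted p in each direction, up to 4 listed genes of smallest adjusted p per contrast, and the 2 start bins, on another chromosome or over 4 Mb away, with the most similar pattern. Other called pairs and the neighbours Fli1 and Irf3 were named after their values were seen. Some named items are not reported here.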

Additional observations from a re-analysis of the deposited data

How the results depend on the processing

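For summed contacts at imminent division minus 10 h, 4 genes were called, against 2 with coverage in the offsets (36.2% of all start bins), 2 above the distance curve (47.1%) and 2 to 4 with each library left out. Irf2 turned to -0.072 under TMM factors and to -0.075 under DESeq2, and Spi1 to 0.015 with coverage in the offsets and 0.023 above the distance curve. With TMM factors Irf4 and Ets1 were called lower as well, where 56.1% of all start bins were called. For pre-S minus 10 h, 2 were called, against 5 with TMM factors (49.5% of all start bins), 5 with DESeq2 (45.5%) and 0 to 2 with a library left out. For imminent division minus pre-S none was called, against 1 above the distance curve (24.2% of all start bins). For 10 h minus 3 h the number was 0 with any library left out.

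For the boundary ratio without a fold-change threshold, 1 gene was called for 10 h minus 3 h, 3 for imminent division minus 10 h and 2 for imminent division minus pre-S, against 0, 1 and 0. The share of all regions called without the threshold is not given here, so these counts are not read as a result about the genes. With 500 kb on each side 0 were called for imminent division minus 10 h, and 0 to 1 with a library left out. The compartment component gave 0 calls, against 1 in 250 kb bins for imminent division minus 10 h and 0 to 2 for 10 h minus 3 h with a library left out. Shares are also not given here for 250 kb bins, for 500 kb flanks or for fits with a library left out. Counts under those settings are not read as a result about the genes. Insulation divided by coverage gave 3 calls for 10 h minus 3 h, 1 for pre-S minus 10 h and 6 for imminent division minus pre-S, against 0, 6 and 0. There Irf2 was 0.076 and Spib 0.0017 for pre-S minus 10 h, and Irf4 -0.37, Irf8 -0.18 and Irf2 -0.24 for imminent division minus pre-S, all of opposite sign to the main values. With a library left out insulation gave 4 to 6 calls for imminent division minus 10 h and 3 to 6 for pre-S minus 10 h.

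Among bin pairs, for imminent division minus 10 h the 21 calls became 40 with TMM factors, 12 with offsets per distance class, 7 with the filter at 2-fold over background, 8 with DESeq2 and 1 to 24 with a library left out. For pre-S minus 10 h the 2 calls became 13, 0, 0, 0 and 0 to 4 in the same order, and 1 with coverage in the offsets. For imminent division minus pre-S the 1 call became 4, 0, 0, 0 and 0 to 3, and 7 with coverage, and 0 with the bin after the Irf4 start bin, which was tried only after the data were seen. With that bin 19 pairs were called for imminent division minus 10 h, none of them of Irf4, and 3 for pre-S minus 10 h, with a lower call for its pair with the Uqcrfs1 bin (-0.78, adjusted p = 0.0360). Shares of all start bin pairs called under these settings are not given here, so these counts are not read against a background. The cause of these differences was not tested.

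Replicate numbers were not taken as pairs: the deviations of same-numbered libraries correlated between groups at -0.443 to 0.138. With a replicate block the call of Irf2 at imminent division was lost (adjusted p = 0.0527), 20 bin pairs were called for imminent division minus 10 h, and 1 for pre-S minus 10 h.

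With 2 libraries a group, the depth limits what single pairs with few read pairs can show.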
